A study of Saccharomyces cerevisiae with 12 samples.

Results

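The genes described here encode the enzymes that make and copy DNA in budding yeast, together with the cohesin ring that holds the new copies together. They were chosen by name from the replication, cohesin, nucleotide reduction and repair genes, after matching the rows of the count table to gene names of the R64 genome. All 41 were found among 7127 yeast rows, and all 41 passed the filter on low counts that left 6127 genes for testing. RNA came from BY4742, a haploid MATalpha laboratory strain labelled wild type, which as background carries deletions in HIS3, LEU2, LYS2 and URA3. All 12 libraries share this strain, and 3 biological replicates were made in each of 4 media. The control medium held 2% glucose and 7 mM potassium (K), and the low-potassium medium held 2% glucose and 1 mM K. The low-glucose medium held 0.5% glucose and 7 mM K, and the jointly restricted medium held 0.5% glucose and 1 mM K. The study set potassium restriction beside glucose restriction, which is a form of caloric restriction, in the setting of chronological lifespan. The growth stage at harvest was not stated.

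As background, ribonucleotide reductase turns ribonucleotides into the deoxyribonucleotides that polymerases use. In yeast it pairs a large subunit, mostly Rnr1 with Rnr3 as an alternative form, with a small subunit made of Rnr2 and Rnr4. Many replication genes peak in transcript level as cells pass from G1 into S phase, under the transcription factor MBF, which binds the MCB element. The genes for the MCM helicase peak earlier, around the exit from mitosis, and RNR2, RNR3 and RNR4 are known for induction when DNA is damaged or replication stalls. Cohesin consists of Smc1, Smc3, the kleisin Mcd1 and Irr1, and Mcd1 is cut at anaphase and made again in the next cycle.

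The stretches upstream of 6 genes are shown to set genes with the MCB letters there (CDC21, POL30 and RAD27) beside reductase and MCM genes without them there (RNR1, RNR2 and MCM5). Each runs from 250 to 101 bases before the coding start on the gene's own strand, read from the R64 genome, and capitals mark the MCB letters ACGCGT or, in RNR1, the SCB letters CACGAAA read on the opposite strand.
RNR1 at chrV:298700-298849 (+ strand): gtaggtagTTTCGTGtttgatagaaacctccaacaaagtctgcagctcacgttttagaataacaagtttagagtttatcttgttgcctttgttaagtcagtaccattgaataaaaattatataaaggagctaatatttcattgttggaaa
RNR2 at chrX:392154-392303 (+ strand): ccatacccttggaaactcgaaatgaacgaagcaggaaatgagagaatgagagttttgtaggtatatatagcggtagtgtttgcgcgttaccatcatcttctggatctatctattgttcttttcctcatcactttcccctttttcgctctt
CDC21 at chrXV:467690-467839 (- strand): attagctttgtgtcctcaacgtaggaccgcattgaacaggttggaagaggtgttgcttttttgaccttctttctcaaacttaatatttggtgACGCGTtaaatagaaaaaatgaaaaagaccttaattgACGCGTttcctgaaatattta
POL30 at chrII:425867-426016 (- strand): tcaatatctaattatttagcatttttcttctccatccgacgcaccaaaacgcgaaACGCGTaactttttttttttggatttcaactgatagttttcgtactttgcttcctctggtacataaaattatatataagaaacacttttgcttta
RAD27 at chrXI:225976-226125 (- strand): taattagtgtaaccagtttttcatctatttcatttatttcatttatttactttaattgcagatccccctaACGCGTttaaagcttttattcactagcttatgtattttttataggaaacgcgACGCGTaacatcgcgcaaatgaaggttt
MCM5 at chrXII:691305-691454 (+ strand): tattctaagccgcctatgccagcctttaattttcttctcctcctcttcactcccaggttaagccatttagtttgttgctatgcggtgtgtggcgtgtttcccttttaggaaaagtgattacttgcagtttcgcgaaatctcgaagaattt
CDC21 and RAD27 held 2 copies of ACGCGT each, POL30 held 1, and RNR1, RNR2 and MCM5 held none in these stretches.

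Levels are given as CPM, the usual scaling of counts to library size, over yeast rows and after TMM scaling, and a level set against another gene's is also divided by coding length in kilobases. Changes are log2 fold changes with their standard errors from edgeR's quasi-likelihood test over all 12 libraries. A gene was called where its Benjamini-Hochberg adjusted p over all genes tested was under 0.05, and "rose" or "fell" is used only of such calls. The libraries held 5634205 to 7036345 counts at yeast rows, and single members held 12 to 10269 counts in a library. Replicate 2 of the low-glucose medium stood apart, with correlations across genes of 0.882 and 0.891 to its partners, against 0.987 between these, and it was the lowest of its group for 26 of the 41 members. In the low-potassium medium replicate 3 was the highest for 29 members, and in the jointly restricted medium replicate 3 was the lowest for 36. MFA1 and MFA2, which mark the opposite mating type, and LEU2, LYS2 and URA3 had no counts in 12 of 12 libraries. Other genes of the opposite mating type had counts in every library, STE6 at 44.9 to 133.9 CPM, STE2 at 7.18 to 17.7 CPM, BAR1 at 4.1 to 11.97 CPM and ASG7 at 0.279 to 2.45 CPM. HIS3, in which the strain carries a deletion, ranged from 3.70 to 177.1 CPM, and how much of the gene is deleted was not checked. STE3, a receptor of MATalpha cells, ranged from 23.2 to 205.6 CPM. A lower level in a culture can mean fewer cells in the phase that makes the transcript or less of it per cell, and RNA from whole cultures cannot tell these apart.

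Potassium restriction raised transcripts of most of these genes at 2% glucose, with the replicative clamp, the kleisin of cohesin and the main large reductase subunit in front. There 21 of 41 members rose and 1 fell, beside a background of 13.1% of all genes tested that rose and 15.0% that fell. The median log2 fold change of the members was 0.64, against a median of -0.0021 over all genes. Without the library that stood apart 31 rose and 1 fell, while the share of all genes called went from 28.1% to 50.5%, of which 26.6% rose and 23.9% fell. Fewer were called without a control library, 14 without replicate 1 and 12 without replicate 3, with 17.6% and 17.4% of all genes called. All of these members rose. At 0.5% glucose 17 members rose and 7 fell, with 48.4% of all genes called, 23.5% that rose and 24.9% that fell, and a members' median of 0.34. Without that library 17 rose and 9 fell, with 57.8% of all genes called, 29.6% that rose and 28.2% that fell, and the median was 0.22. Scaling by library totals gave 12 that rose and 7 that fell with 42.6% of all genes called, and scaling by the rows with WBGene identifiers, whose reference is not stated and which took 34.0% to 41.6% of counts, gave 10 and 7 with 41.4% of all genes called. The members' share of calls under these scalings was near that of all genes. Of the 41 members, 13 rose with potassium restriction at both glucose levels, 3 rose at 2% and fell at 0.5% glucose, and 1 fell at both. Shares of all genes with these patterns are not given, so these counts have no background beside them.

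Glucose restriction moved fewer members at 7 mM K and divided them at 1 mM K. At 7 mM K 13 members rose and 1 fell, with 33.9% of all genes called, 16.9% that rose and 17.0% that fell, and a median of 0.32. Without the library that stood apart 20 rose and 1 fell, with 43.8% of all genes called, 22.0% that rose and 21.8% that fell. The total of 14 dropped to 8 without control replicate 1 or replicate 3, with 23.6% and 24.1% of all genes called. It was 9 without control replicate 2 and 9 without replicate 3 of the low-glucose medium, with 25.3% and 31.3% called. The members' share of calls was near that of all genes with all 12 libraries and below it in these fits. At 1 mM K 13 members rose and 7 fell, with 34.8% of all genes called, 16.3% that rose and 18.4% that fell, and a median of 0.26. Without that library 15 rose and 7 fell, with 51.1% of all genes called, 24.2% that rose and 26.9% that fell. Scaling by library totals gave 6 that rose and 7 that fell with 34.7% of all genes called, and scaling by WBGene rows gave 4 and 7 with 36.1% called, so the members' share was no higher than that of all genes. The median of all genes was -0.27 and -0.45 under these scalings. The same 4 members, DPB2, MSH6, POL30 and RAD27, rose with glucose restriction at both potassium levels. With all 12 libraries in the fit, 32 members were called in at least 1 of the 4 pairwise comparisons, and MCM2, MCM3, MCM6, POL3, RAD53, RFC2, RFC4, RFC5 and TOF1 were called in none. The shares of all genes called in at least 1 comparison, or that rose at both potassium levels, are not given. Neither count was thus set against a background.

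**Figure D1:**
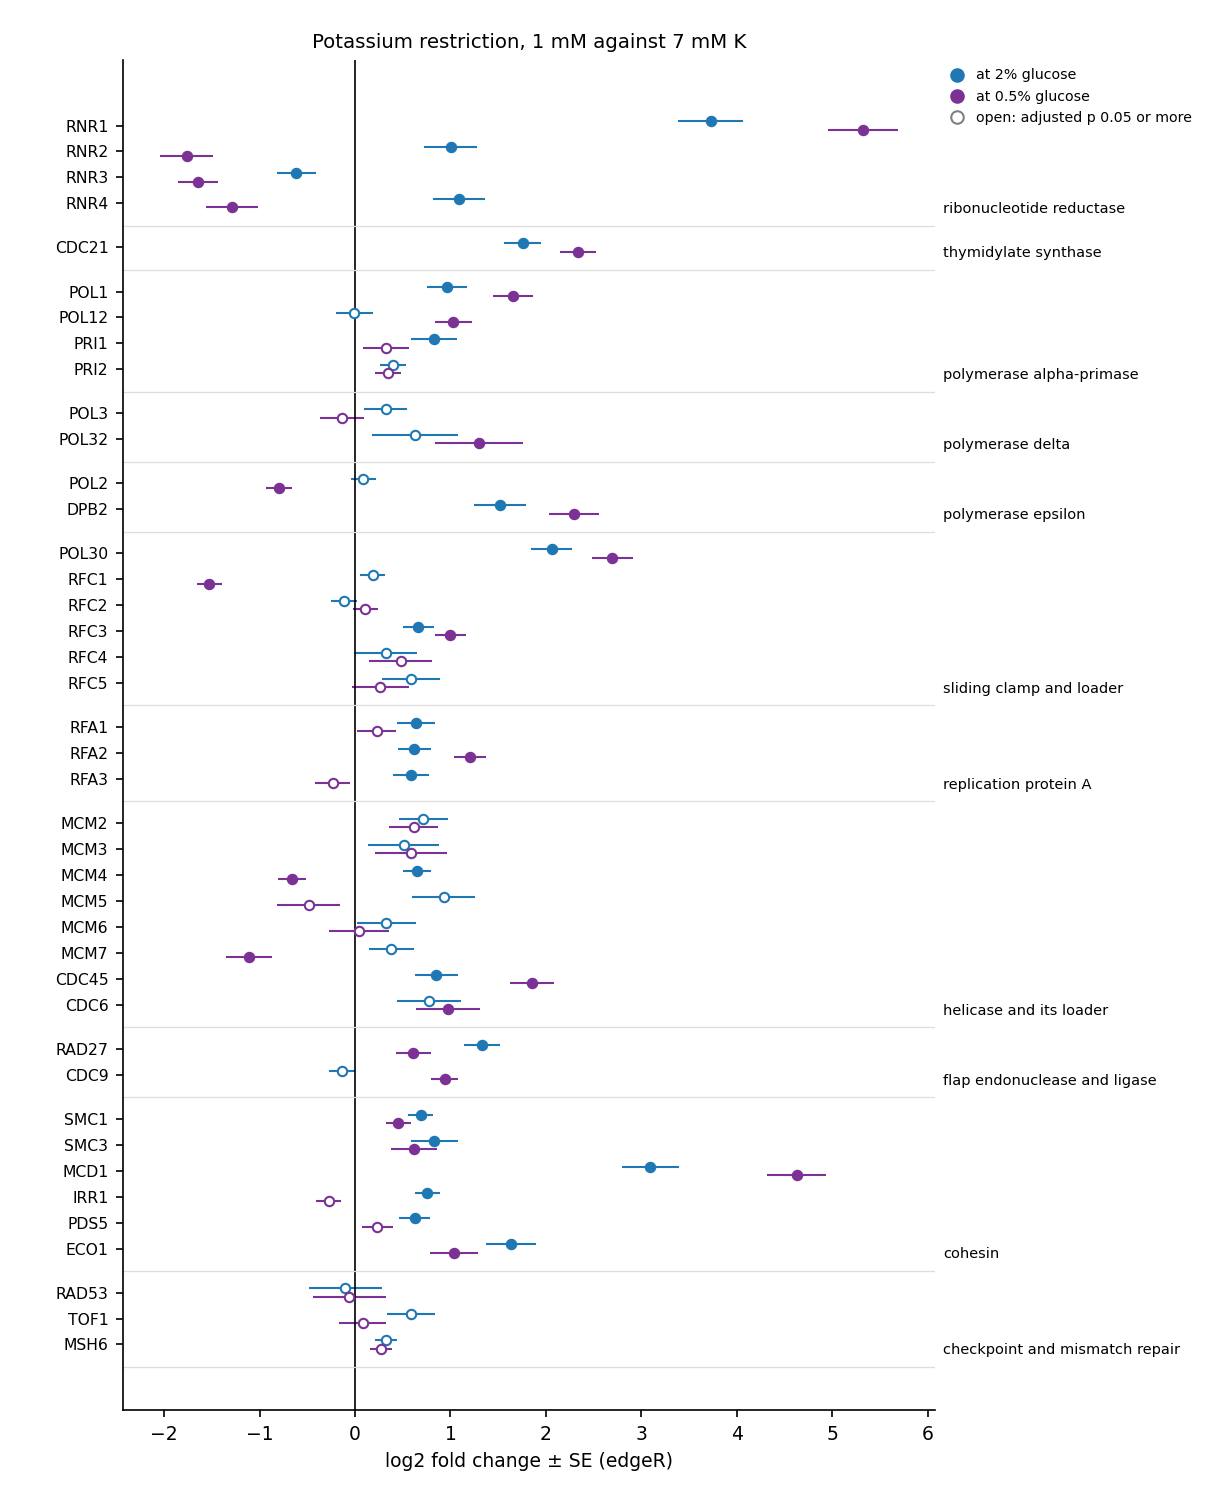
Log2 fold change (x axis, with standard error) of each of the 41 members for 1 mM against 7 mM potassium at 2% glucose (blue) and at 0.5% glucose (purple); filled points had an adjusted p under 0.05. RNR1 and MCD1 lie farthest to the right at both glucose levels, and RNR2 and RNR4 lie to the right of 0 at 2% and to the left at 0.5% glucose.

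**Figure D2:**
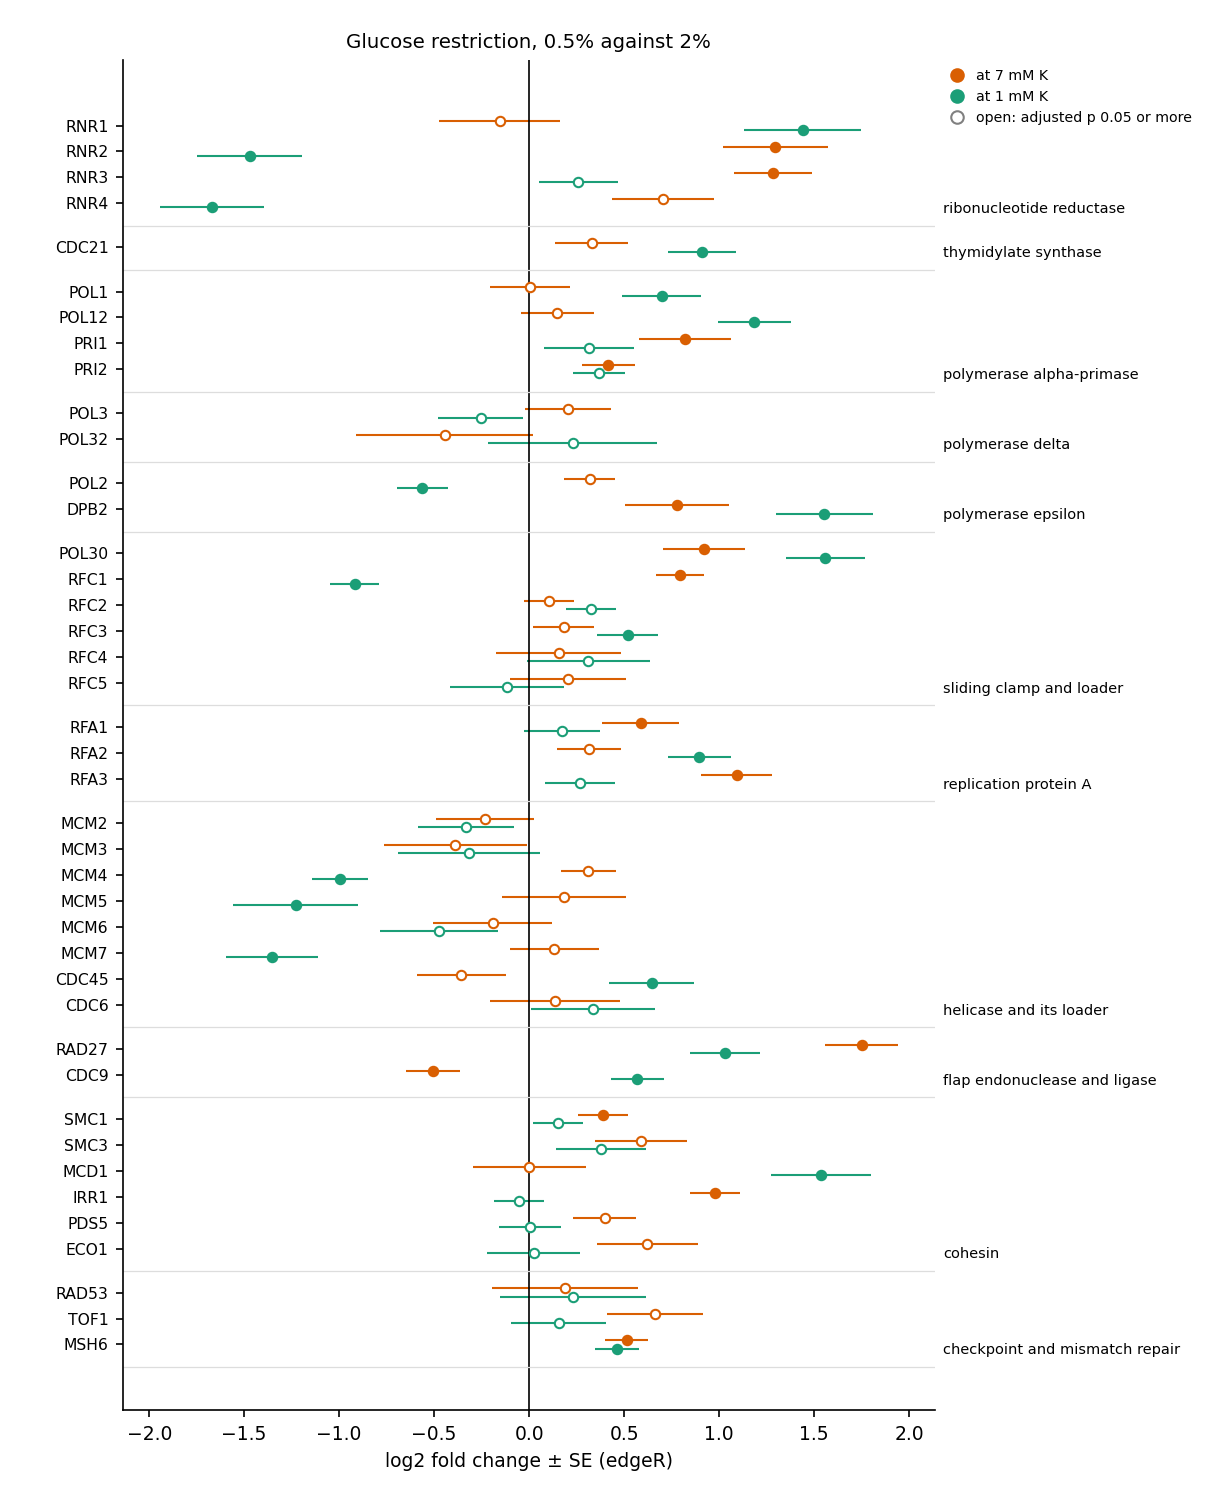
Log2 fold change (x axis, with standard error) of each of the 41 members for 0.5% against 2% glucose at 7 mM potassium (orange) and at 1 mM potassium (green); filled points had an adjusted p under 0.05. RNR2 and RFC1 lie to the right at 7 mM and to the left at 1 mM, and RAD27 and POL30 lie to the right at both.

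The large and the small subunit genes of ribonucleotide reductase moved in different ways. RNR1 (chrV:298950-301616), the main large subunit, stood at 21.7, 20.6 and 20.6 CPM in the control medium and at 196.5, 217.2 and 419.4 CPM in the low-potassium medium. In the low-glucose medium it stood at 24.1, 12.9 and 19.2 CPM, and in the jointly restricted medium at 834.7, 864.1 and 560.5 CPM. Every library at 1 mM K lay far above every library at 7 mM K, and the jointly restricted libraries lay above the low-potassium ones. The rise with potassium restriction was 3.73 ± 0.34 at 2% glucose (adjusted p = 1.98e-05) and 5.32 ± 0.37 at 0.5% glucose (adjusted p = 1.54e-06), the latter a 40.0-fold difference. Glucose restriction raised RNR1 at 1 mM K by 1.44 ± 0.31 (adjusted p = 0.00392), a call that was lost with WBGene scaling. At 7 mM K its value was -0.16 ± 0.32, with groups that overlapped.

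RNR2 (chrX:392404-393603), a small subunit gene, stood at 407.2, 431.3 and 454.9 CPM in the control medium and at 891, 921.9 and 777.3 CPM in the low-potassium medium. Its levels were 1404, 634.8 and 1135 CPM in the low-glucose medium and 361.4, 321.3 and 251.1 CPM in the jointly restricted medium. RNR2 was thus above the control range under either restriction by itself and below it under both together, with no overlap in any of the 4 comparisons. It rose with potassium restriction by 1.00 ± 0.27 at 2% glucose (adjusted p = 0.0181), a call lost when any 1 of the 3 control libraries was left out, and fell by 1.76 ± 0.28 at 0.5% glucose (adjusted p = 0.000394). With glucose restriction it rose by 1.3 ± 0.28 at 7 mM K (adjusted p = 0.00368) and fell by 1.47 ± 0.28 at 1 mM K (adjusted p = 0.00194).

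RNR4 (chrVII:855264-856301), the other small subunit gene, ran close to RNR2. It stood at 400, 408.6 and 444.2 CPM in the control medium, 916.1, 945.1 and 799.6 CPM in the low-potassium medium, 890.9, 392.3 and 755.2 CPM in the low-glucose medium, and 302.6, 296.5 and 237.5 CPM in the jointly restricted medium. It rose with potassium restriction by 1.09 ± 0.27 at 2% glucose (adjusted p = 0.0111) and fell by 1.28 ± 0.27 at 0.5% glucose (adjusted p = 0.00244). Replicate 2 of the low-glucose medium lay below the control range, and the difference of 0.70 ± 0.27 at 7 mM K had an adjusted p of 0.0629 with it and of 0.00021 without it. At 1 mM K RNR4 fell with glucose restriction by 1.67 ± 0.27 (adjusted p = 0.000898).

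RNR3 (chrIX:238099-240708), the alternative large subunit, moved against RNR1 with potassium restriction. It stood at 47.1, 41.7 and 50.01 CPM in the control medium, 29.4, 28.8 and 32.4 CPM in the low-potassium medium, 102.2, 155.7 and 80.8 CPM in the low-glucose medium, and 34.7, 34.8 and 39.1 CPM in the jointly restricted medium. Each low-glucose library lay above all others, and both media with 1 mM K lay below the control range. RNR3 fell with potassium restriction by 0.61 ± 0.21 at 2% glucose (adjusted p = 0.0448), a call lost in 10 of the 12 fits that left out 1 library, and by 1.64 ± 0.21 at 0.5% glucose (adjusted p = 9.47e-05). It rose with glucose restriction at 7 mM K by 1.28 ± 0.21 (adjusted p = 0.000609). At 1 mM K, where RNR1 rose, its value was 0.26 ± 0.21 (adjusted p = 0.372), with all jointly restricted libraries above the low-potassium ones. RNR1 and RNR3 shared 16 of 2643 stretches of 25 bases and 0 of 2618 stretches of 50 bases, so some reads may fit both genes, and how the authors' counting split them is not known. RNR2 and RNR4 shared none of either length.

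**Figure D3:**
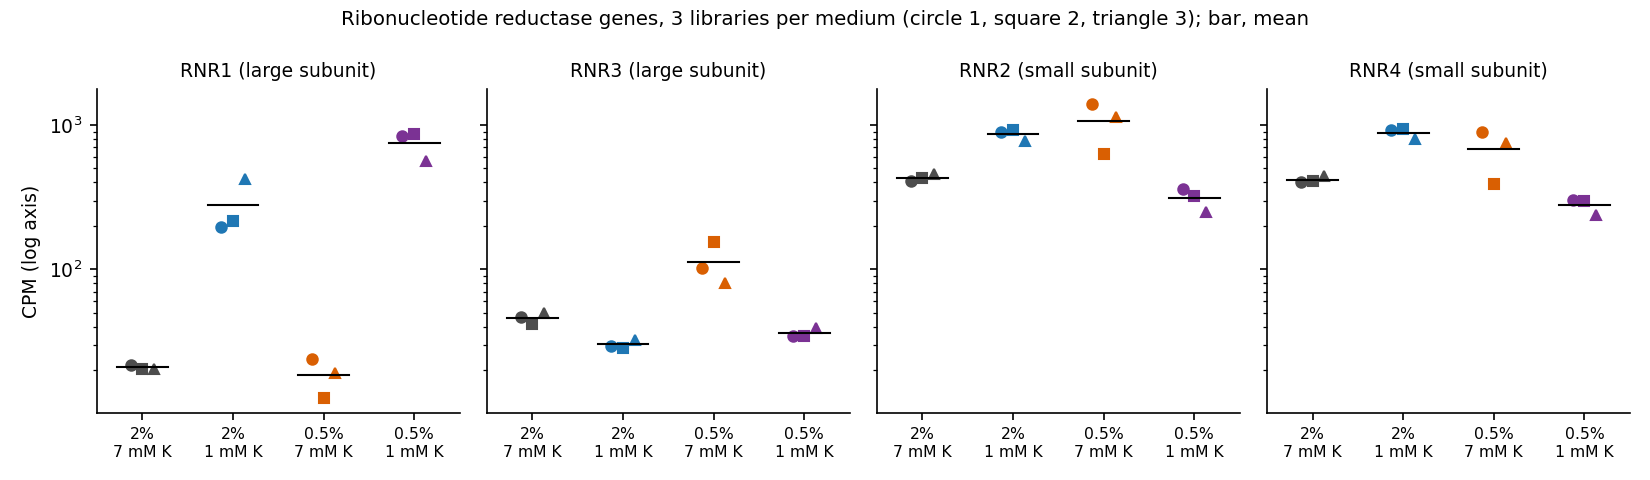
Transcript level of the 4 ribonucleotide reductase genes in CPM (log axis) in each library of the 4 media, with bars at the mean of 3 libraries. RNR1 is far higher at 1 mM than at 7 mM potassium, RNR3 is highest in the low-glucose medium, and RNR2 and RNR4 are lowest in the jointly restricted medium.

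Ratios within a library do not depend on how libraries are scaled. Per kilobase, the RNR1 to RNR2 ratio was 0.0219 ± 0.00184 in the control medium, 0.149 ± 0.0810 in the low-potassium medium, 0.00815 ± 0.000841 in the low-glucose medium and 1.08 ± 0.110 in the jointly restricted medium (SD, n = 3). The 4 groups did not overlap, and the large and the main small subunit transcripts were near parity only in the jointly restricted medium. RNR1 made up 30.8% ± 1.93 of large subunit transcripts per kilobase in the control medium, 89.2% ± 3.12 in the low-potassium medium, 15.03% ± 6.54 in the low-glucose medium and 95.1% ± 1.52 in the jointly restricted medium. The main large subunit was thus the minority form at 7 mM K and the majority form at 1 mM K, in every library. The RNR2 to RNR4 ratio stayed between 0.841 and 0.913 in the 6 libraries with 2% glucose, reached 1.3 to 1.4 in the low-glucose medium and lay at 0.915 to 1.03 in the jointly restricted medium. With 3 libraries against 3, a two-sided exact permutation test cannot go below 0.10, so these ratios are given without one.

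**Figure D4:**
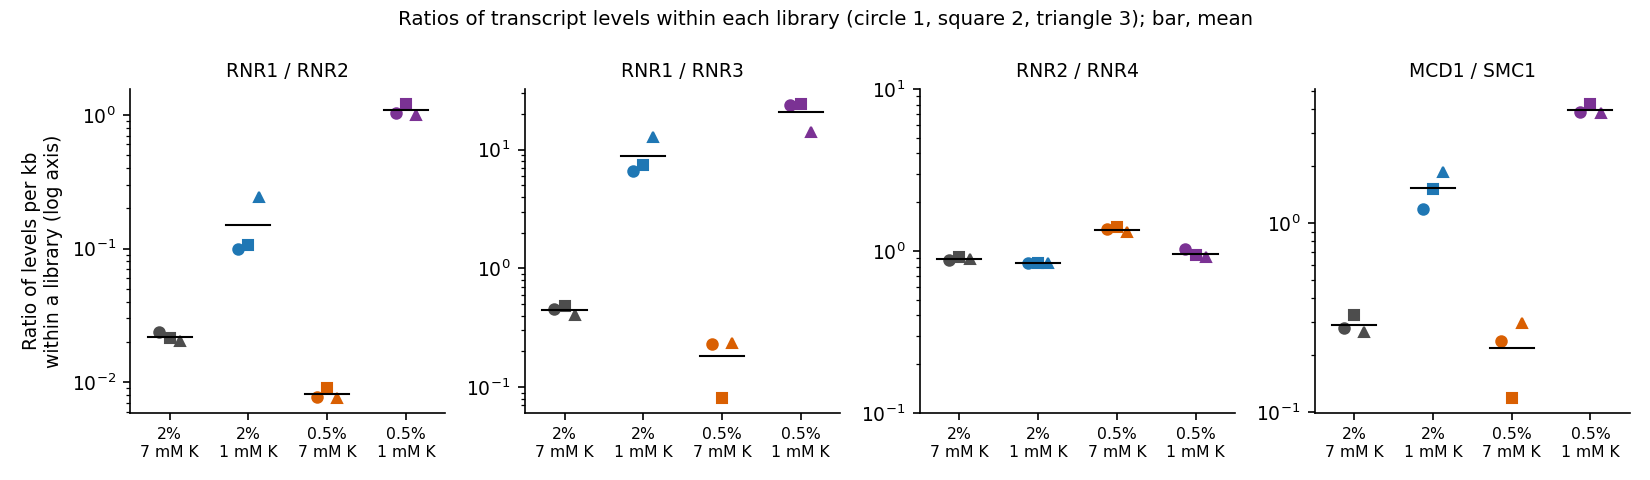
Ratios of transcript levels per kilobase within each library (log axis) for RNR1 to RNR2, RNR1 to RNR3, RNR2 to RNR4 and MCD1 to SMC1, with bars at the mean of 3 libraries. RNR1 to RNR2 and MCD1 to SMC1 are higher in every library at 1 mM than at 7 mM potassium. RNR2 to RNR4 lies at 1.3 to 1.4 in the low-glucose medium and at 0.841 to 1.03 in the other media.

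CDC21 encodes thymidylate synthase, which makes the thymidine nucleotide, and it moved with RNR1. It stood at 12.4, 12.4 and 12.1 CPM in the control medium, 37.4, 40.5 and 46.6 CPM in the low-potassium medium, 18.2, 14.8 and 13.2 CPM in the low-glucose medium, and 86.4, 87.7 and 59.9 CPM in the jointly restricted medium. Libraries at 1 mM K lay above all libraries at 7 mM K. Potassium restriction raised CDC21 by 1.76 ± 0.19 at 2% glucose (adjusted p = 5.91e-05) and by 2.34 ± 0.19 at 0.5% glucose (adjusted p = 4.63e-06). Glucose restriction raised it at 1 mM K by 0.91 ± 0.18 (adjusted p = 0.00244), which was not called when libraries were scaled by their totals or by WBGene rows.

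DNA polymerase alpha and primase start each new strand. Of the 4 genes, 2 rose with potassium restriction at each glucose level and none fell. POL1, the catalytic subunit, stood at 32.3, 35.4 and 33.5 CPM in the control medium, 63.6, 63.2 and 70.3 CPM in the low-potassium medium, 42.6, 26.3 and 32.3 CPM in the low-glucose medium, and 117.9, 126.2 and 75.1 CPM in the jointly restricted medium. It rose with potassium restriction by 0.96 ± 0.21 (adjusted p = 0.00557) and 1.65 ± 0.21 (adjusted p = 9.96e-05) at 2% and 0.5% glucose. POL12, the B subunit, stood at 43.0, 40.7 and 40.7 CPM in the control medium, 35.8, 35.1 and 52.8 CPM in the low-potassium medium, 41.3, 56.7 and 40.2 CPM in the low-glucose medium, and 101.1, 100.9 and 79.5 CPM in the jointly restricted medium. The jointly restricted libraries lay above all others for POL12, and it rose there by 1.03 ± 0.19 against the low-glucose medium (adjusted p = 0.00116) and by 1.19 ± 0.19 against the low-potassium medium (adjusted p = 0.000851). PRI1, the catalytic subunit of primase, rose by 0.83 ± 0.24 with potassium restriction at 2% glucose (adjusted p = 0.025) and by 0.82 ± 0.24 with glucose restriction at 7 mM K (adjusted p = 0.0222). The values of its partner PRI2 lay between 0.34 and 0.42 in the 4 comparisons, and it was called with glucose restriction at 7 mM K alone (adjusted p = 0.0343), a call lost without any 1 of the 3 control libraries.

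For polymerase delta, which extends the lagging strand, the catalytic POL3 was called in no comparison. It stood at 45.5, 45.6 and 46.8 CPM in the control medium, 50.9, 54.4 and 67.0 CPM in the low-potassium medium, 64, 31.4 and 62.8 CPM in the low-glucose medium, and 46.5, 49.6 and 48.3 CPM in the jointly restricted medium. Without the library that stood apart, POL3 and POL32 both rose with potassium restriction at 2% glucose, by 0.34 and 0.64 (adjusted p = 0.0308 and 0.0458). The share of all genes that rose there was 26.6% without that library and 13.1% with it. The low-glucose replicates of POL3 lay on both sides of the control range, and the value with glucose restriction at 7 mM K was 0.20 ± 0.23 with the library that stood apart and 0.46 without it (adjusted p = 0.52 and 0.0117). POL32, its small subunit, stood at 9.45, 13.7 and 15.6 CPM in the control medium, 15.9, 18.5 and 25.4 CPM in the low-potassium medium, 16.1, 2.34 and 9.47 CPM in the low-glucose medium, and 27.1, 23.0 and 19.8 CPM in the jointly restricted medium. Its lowest value was that of the library that stood apart. POL32 rose with potassium restriction at 0.5% glucose by 1.3 ± 0.46 (adjusted p = 0.036), and by 0.88 without that library (adjusted p = 0.017). The call was lost in 6 of the 12 fits that left out 1 library.

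For polymerase epsilon, which extends the leading strand, the catalytic POL2 and the accessory DPB2 parted. DPB2 stood at 10.9, 10.2 and 8.68 CPM in the control medium, 22.7, 28.9 and 34.0 CPM in the low-potassium medium, 11.6, 25.5 and 14.5 CPM in the low-glucose medium, and 81.9, 78.3 and 91.1 CPM in the jointly restricted medium. It rose with potassium restriction by 1.52 ± 0.27 (adjusted p = 0.0016) and 2.29 ± 0.27 (adjusted p = 4.88e-05) at 2% and 0.5% glucose. With glucose restriction it rose by 1.55 ± 0.26 at 1 mM K (adjusted p = 0.000911), and its rise of 0.78 ± 0.27 at 7 mM K (adjusted p = 0.0455) was 0.39 without the library that stood apart (adjusted p = 0.146). POL2 stood at 108.5, 97.6 and 94.6 CPM in the control medium, 108.4, 109 and 102.3 CPM in the low-potassium medium, 128.3, 131.2 and 115.6 CPM in the low-glucose medium, and 80.3, 77.2 and 58.9 CPM in the jointly restricted medium. All jointly restricted libraries were below all others. POL2 fell there by 0.79 ± 0.14 with potassium restriction (adjusted p = 0.00068) and by 0.56 ± 0.14 with glucose restriction (adjusted p = 0.00765).

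The sliding clamp gene POL30 and its loader subunit RFC1 moved apart. POL30, which encodes the ring (PCNA) that tethers polymerases, stood at 15.2, 17.1 and 17.9 CPM in the control medium, 51.4, 78.2 and 79.5 CPM in the low-potassium medium, 36.1, 23.4 and 35.2 CPM in the low-glucose medium, and 224.1, 221.8 and 170.8 CPM in the jointly restricted medium. The media did not overlap, in the order control, low-glucose, low-potassium and jointly restricted, and POL30 rose in all 4 comparisons. The rises with potassium restriction were 2.06 ± 0.22 at 2% glucose (adjusted p = 5.41e-05) and 2.70 ± 0.22 at 0.5% glucose (adjusted p = 4.63e-06), and those with glucose restriction were 0.92 ± 0.22 (adjusted p = 0.00682) and 1.56 ± 0.21 (adjusted p = 0.000266) at 7 and 1 mM K.

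RFC1, the large subunit of the clamp loader, stood at 96.1, 102 and 114 CPM in the control medium, 115.9, 126.8 and 111.9 CPM in the low-potassium medium, 181.8, 189.8 and 170.2 CPM in the low-glucose medium, and 67.6, 65.8 and 54.3 CPM in the jointly restricted medium. It was highest in the low-glucose and lowest in the jointly restricted libraries. RFC1 rose with glucose restriction by 0.80 ± 0.13 at 7 mM K (adjusted p = 0.000609) and fell by 0.92 ± 0.13 at 1 mM K (adjusted p = 0.000355), and it fell with potassium restriction at 0.5% glucose by 1.53 ± 0.13 (adjusted p = 6.33e-06). The POL30 to RFC1 ratio per kilobase went from 0.535 ± 0.0207 in the control medium and 0.587 ± 0.153 in the low-glucose medium to 1.97 ± 0.450 in the low-potassium and 10.9 ± 0.387 in the jointly restricted medium (SD, n = 3). Of the small loader subunits, RFC3 rose with potassium restriction at both glucose levels, by 0.66 ± 0.16 (adjusted p = 0.0102) and 1.00 ± 0.16 (adjusted p = 0.00046). RFC2, RFC4 and RFC5 were called in no comparison with all libraries in the fit, with RFC4 between 0.16 and 0.48. Without the library that stood apart, 3 of the 6 clamp and loader genes rose with potassium restriction at 2% glucose, against 2 with it. The same counts held for glucose restriction at 7 and at 1 mM K. Of all genes, 26.6%, 22.0% and 24.2% rose in these comparisons without that library, against 13.1%, 16.9% and 16.3% with it.

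Replication protein A covers single-stranded DNA, and its 3 subunit genes rose together in 1 of the 4 comparisons, and in 2 without the library that stood apart. With potassium restriction at 2% glucose RFA1, RFA2 and RFA3 rose by 0.64 ± 0.20, 0.62 ± 0.17 and 0.59 ± 0.19 (adjusted p = 0.0348, 0.017 and 0.0345). The RFA1 and RFA3 calls were lost in 6 and 5 of the 12 fits that left out 1 library. RFA2, the middle subunit, stood at 64.7, 57.6 and 57.7 CPM in the control medium, 81.2, 102.9 and 93.0 CPM in the low-potassium medium, 77.8, 58.3 and 87.6 CPM in the low-glucose medium, and 176, 192.4 and 147.4 CPM in the jointly restricted medium. It also rose with potassium restriction at 0.5% glucose, by 1.2 ± 0.17 (adjusted p = 0.000173). RFA3, the smallest subunit, stood at 33.4, 28.5 and 37.5 CPM in the control medium, 60.2, 42.3 and 46.8 CPM in the low-potassium medium, 67.0, 72.7 and 72.3 CPM in the low-glucose medium, and 70.6, 62.4 and 46.7 CPM in the jointly restricted medium. Every other medium lay above the control range for RFA3, and its rise with glucose restriction at 7 mM K was 1.09 ± 0.19 (adjusted p = 0.000926). Without the library that stood apart, RFA1, RFA2 and RFA3 rose in that comparison by 0.77, 0.46 and 1.07 (adjusted p = 0.00184, 0.0161 and 0.0004). The share of all genes that rose there was 22.0% without that library and 16.9% with it.

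The MCM genes, which encode the 6 subunits of the replicative helicase, did not rise with the clamp at 0.5% glucose. With potassium restriction at 2% glucose MCM4 rose and the other 5 were not called, and at 0.5% glucose MCM4 and MCM7 fell. MCM2, MCM3 and MCM5 also rose at 2% glucose without the library that stood apart, by 0.73, 0.53 and 0.94 (adjusted p = 0.00773, 0.0449 and 0.000212). The share of all genes that rose there was 26.6% without that library and 13.1% with it. MCM4 stood at 67.3, 66.9 and 70.1 CPM in the control medium, 101.6, 104.9 and 113.5 CPM in the low-potassium medium, 98, 72.1 and 83.4 CPM in the low-glucose medium, and 53.7, 61.7 and 45.1 CPM in the jointly restricted medium. It was above the control range under either restriction and below it under both, as RNR2 was. MCM4 rose by 0.65 ± 0.15 (adjusted p = 0.00677) and fell by 0.66 ± 0.15 (adjusted p = 0.00342) with potassium restriction at 2% and 0.5% glucose, and it fell with glucose restriction at 1 mM K by 1.00 ± 0.15 (adjusted p = 0.000488). MCM5 and MCM7 fell in that last comparison by 1.23 ± 0.33 (adjusted p = 0.0133) and 1.35 ± 0.24 (adjusted p = 0.00145). These 3 MCM genes fell there under every scaling tried. Other MCM5 values depended on the library that stood apart, where it was at 22.6 CPM against 63.5 and 71.8 CPM in its partners. With potassium restriction its values were 0.93 ± 0.33 at 2% glucose and -0.48 ± 0.33 at 0.5% glucose (adjusted p = 0.0522 and 0.241), and without that library 0.94 and -0.83 (adjusted p = 0.000212 and 0.000979). MCM2, MCM3 and MCM6 were called in no comparison with all libraries in the fit, and MCM6 ranged from 16.2 CPM in that library to 61.8 CPM in replicate 3 of the low-potassium medium.

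CDC45, which joins the MCM ring in the active helicase, moved with the clamp instead. It stood at 16.9, 23.0 and 13.8 CPM in the control medium, 27.3, 30.0 and 40.1 CPM in the low-potassium medium, 16.0, 11.7 and 14.2 CPM in the low-glucose medium, and 58.7, 50.6 and 42.9 CPM in the jointly restricted medium. Libraries at 1 mM K lay above all libraries at 7 mM K. Potassium restriction raised CDC45 by 0.85 ± 0.23 at 2% glucose (adjusted p = 0.0165) and by 1.86 ± 0.23 at 0.5% glucose (adjusted p = 8.62e-05). Per kilobase, the CDC45 to MCM7 ratio was 0.390 ± 0.0950 in the control medium, 0.556 ± 0.0769 in the low-potassium medium, 0.283 ± 0.0378 in the low-glucose medium and 2.18 ± 0.363 in the jointly restricted medium (SD, n = 3). CDC6, which loads the MCM ring at origins, rose with potassium restriction at 0.5% glucose by 0.97 ± 0.33 (adjusted p = 0.0311), and the value was 0.79 without the library that stood apart (adjusted p = 0.0548).

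RAD27 and CDC9 finish the lagging strand, by trimming flaps and by sealing nicks. RAD27 stood at 19.7, 20.4 and 21.9 CPM in the control medium, 41.9, 50.1 and 64.2 CPM in the low-potassium medium, 57.1, 80.9 and 71.0 CPM in the low-glucose medium, and 111.3, 117.7 and 90.1 CPM in the jointly restricted medium. It rose with both restrictions at both levels of the other. Its largest rise was with glucose restriction at 7 mM K, 1.75 ± 0.19 (adjusted p = 3.98e-05), followed by 1.33 ± 0.19 with potassium restriction at 2% glucose (adjusted p = 0.000363), 1.03 ± 0.18 with glucose restriction at 1 mM K (adjusted p = 0.00138) and 0.61 ± 0.18 with potassium restriction at 0.5% glucose (adjusted p = 0.0157). The last of these was not called without any 1 of 4 libraries of the media compared, with library totals, with WBGene scaling or in the fit of the compared groups alone.

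CDC9, the ligase, stood at 77.7, 75.7 and 79.1 CPM in the control medium, 64.4, 71.4 and 75.8 CPM in the low-potassium medium, 47.3, 61.6 and 55.1 CPM in the low-glucose medium, and 111, 114.6 and 88.3 CPM in the jointly restricted medium. It was lowest in the low-glucose and highest in the jointly restricted libraries, the reverse of RFC1. CDC9 fell with glucose restriction at 7 mM K by 0.50 ± 0.14 (adjusted p = 0.0165), a call lost with upper-quartile, library-total and WBGene scaling, and rose by 0.57 ± 0.14 at 1 mM K (adjusted p = 0.00841), a call lost with library totals and WBGene scaling. With potassium restriction at 0.5% glucose it rose by 0.94 ± 0.14 (adjusted p = 0.00029).

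All 6 cohesin genes rose with potassium restriction at 2% glucose, and the kleisin MCD1 (chrIV:444683-446383) by far the most. MCD1 stood at 6.68, 7.92 and 6.75 CPM in the control medium, 45.6, 60.7 and 76.7 CPM in the low-potassium medium, 7.52, 3.90 and 9.61 CPM in the low-glucose medium, and 191.9, 202.2 and 136.6 CPM in the jointly restricted medium. As for RNR1, the 7 mM K media overlapped with each other and lay far below the 1 mM K media. The rise with potassium restriction was 3.09 ± 0.30 at 2% glucose (adjusted p = 2.74e-05), an 8.54-fold difference, and 4.63 ± 0.31 at 0.5% glucose (adjusted p = 1.33e-06). Glucose restriction raised MCD1 at 1 mM K by 1.54 ± 0.26 (adjusted p = 0.00112).

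The ring partners of Mcd1 moved less. The MCD1 to SMC1 ratio per kilobase was 0.288 ± 0.0317 in the control medium, 1.52 ± 0.335 in the low-potassium medium, 0.217 ± 0.0905 in the low-glucose medium and 3.98 ± 0.259 in the jointly restricted medium (SD, n = 3). SMC1 rose with potassium restriction by 0.69 ± 0.13 (adjusted p = 0.00254) and 0.45 ± 0.13 (adjusted p = 0.0137) at 2% and 0.5% glucose. SMC3 rose by 0.83 ± 0.24 at 2% glucose (adjusted p = 0.0239), and its rise of 0.62 ± 0.24 at 0.5% glucose (adjusted p = 0.049) was 0.42 without the library that stood apart (adjusted p = 0.0793). ECO1, the acetyltransferase that locks cohesin onto sister chromatids, rose by 1.63 ± 0.26 (adjusted p = 0.000763) and 1.04 ± 0.25 (adjusted p = 0.00562). PDS5, a regulator of the ring, rose by 0.62 ± 0.16 at 2% glucose (adjusted p = 0.015).

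IRR1, the remaining core subunit, stood at 51.8, 45.8 and 51.0 CPM in the control medium, 80.2, 90.8 and 79.8 CPM in the low-potassium medium, 107.2, 95.1 and 90.4 CPM in the low-glucose medium, and 91.6, 78.6 and 71.3 CPM in the jointly restricted medium. All 3 restricted media lay above the control range. It rose with potassium restriction at 2% glucose by 0.76 ± 0.13 (adjusted p = 0.00146) and with glucose restriction at 7 mM K by 0.98 ± 0.13 (adjusted p = 0.000194), and its values were -0.28 ± 0.13 with potassium restriction at 0.5% glucose and -0.05 ± 0.13 with glucose restriction at 1 mM K.

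Among the checkpoint and mismatch repair members, MSH6 was called and the others were not with all libraries in the fit. Without the library that stood apart, 2 of the 3 rose with potassium restriction at 2% glucose, where none was called with it. The share of all genes that rose in this comparison was 26.6% without that library and 13.1% with it. MSH6, which recognises mismatched bases, stood at 77.2, 83.8 and 79.0 CPM in the control medium, 96.2, 99.5 and 104.4 CPM in the low-potassium medium, 115.9, 103.7 and 123.1 CPM in the low-glucose medium, and 132.6, 147.4 and 133.4 CPM in the jointly restricted medium. Glucose restriction raised it by 0.51 ± 0.11 at 7 mM K (adjusted p = 0.00462) and by 0.46 ± 0.11 at 1 mM K (adjusted p = 0.00814), the latter not with library totals or WBGene scaling. TOF1, part of the fork protection complex, stood at 37.6, 28.1 and 29.8 CPM in the control medium, 35.7, 39.8 and 67.8 CPM in the low-potassium medium, 52.4, 44.4 and 54.3 CPM in the low-glucose medium, and 64, 55.4 and 40.0 CPM in the jointly restricted medium. Its value with glucose restriction at 7 mM K was 0.66 ± 0.25 (adjusted p = 0.0619), and 0.75 without the library that stood apart (adjusted p = 0.0309). RAD53, the effector kinase of the replication checkpoint, had values between -0.10 and 0.23 and groups that overlapped in all 4 comparisons. It stood at 14.8 CPM in the library that stood apart, against 48.8 and 47.2 CPM in its partners, and without that library its values with potassium restriction at 0.5% glucose and with glucose restriction at 7 mM K were -0.42 and 0.56 (adjusted p = 0.162 and 0.0828).

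The interaction compares the effect of potassium restriction at 0.5% glucose with that at 2% glucose, and 15 members were called. It was higher at 0.5% glucose for 5, RNR1, POL12, CDC45, CDC9 and MCD1, and lower for 10, beside 29.9% of all genes called, 14.8% higher and 15.2% lower. Without the library that stood apart it was higher for 6 and lower for 12, with 47.5% of all genes called, 23.9% higher and 23.6% lower. The members with the strongest negative interaction were RNR2 at -2.77 ± 0.39 (adjusted p = 0.000435), RNR4 at -2.37 ± 0.38 (adjusted p = 0.000924) and RFC1 at -1.71 ± 0.18 (adjusted p = 8.5e-05). The positive values were at most 1.60 ± 0.44, that of RNR1 (adjusted p = 0.018), and depended on scaling. Upper-quartile scaling gave 3 higher and 11 lower, library totals 1 and 11, and WBGene scaling 0 and 11, with the median of all genes at -0.26, -0.34 and -0.63. Of all genes, 33.1%, 29.3% and 32.3% were called under these scalings. The calls for RNR2, RNR4, RFC1, MCM4, MCM7, POL2 and IRR1 were kept in every alternative that gave an interaction and in each of the 12 fits that left out 1 library.

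The MCB letters ACGCGT, which read the same on both strands, were searched from 250 bases before to 50 bases after the coding start. They lay there in 24 of 41 members (58.5%), against 184 of 5988 windows of all genes (3.07%). The 34 sites of the members lay 108 to 222 bases before the start, and 10 members held more than 1 site, as did 21 windows of all genes (0.351%). The SCB letters CACGAAA, searched on both strands, lay in RNR1, RNR3, RFC1 and MCM7 (9.76%), against 4.21% of all windows. RNR3 was the only member with both, at sites that did not overlap. None of MCM2 to MCM7, RNR1, RNR2, RNR4 or MCD1 held ACGCGT in this window, whereas CDC21, POL1, POL12, POL30, RAD27, CDC45 and ECO1 did. Sequence farther upstream was not searched, so these genes may hold the letters there.

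Members with and without ACGCGT had similar medians for potassium restriction at 2% glucose and different ones at 0.5% glucose. At 2% glucose the medians were 0.63 for 24 members with it and 0.65 for 17 without. At 0.5% glucose they were 0.62 and 0.04, with 14 members that rose and 2 that fell among those with it, and 3 and 5 among those without. For glucose restriction at 1 mM K the medians were 0.35 and -0.32, with 10 and 1 against 3 and 6. At 0.5% glucose the medians were 0.61 and -0.20 without the library that stood apart, so that of members without the letters changed sign. The 156 other genes tested with ACGCGT had medians of 0.24 and 0.13 for potassium restriction at 2% and 0.5% glucose. Of them, 32 and 41 rose while 15 and 31 fell. The 5463 other genes without it had medians of -0.013 and -0.047, and 703 and 1250 of them rose while 866 and 1420 fell. The shares that rose were 20.5% with the letters and 12.9% without at 2% glucose, and 26.3% and 22.9% at 0.5% glucose. Without the library that stood apart 64 of the 156 rose and 28 fell at 2% glucose. Of 5485 other genes without the letters, 1452 rose (26.5%) and 1373 fell in that fit. For glucose restriction at 1 mM K with all libraries, 25 of the 156 rose (16.0%) and 18 fell, with a median of 0.09. Of the 5463 without the letters, 877 rose (16.1%) and 1047 fell there, with a median of -0.04. The shares of other genes that rose were thus alike in that comparison. The differences between genes with and without the letters, among members or others, were not tested, and a match does not show that a factor binds.

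**Figure D5:**
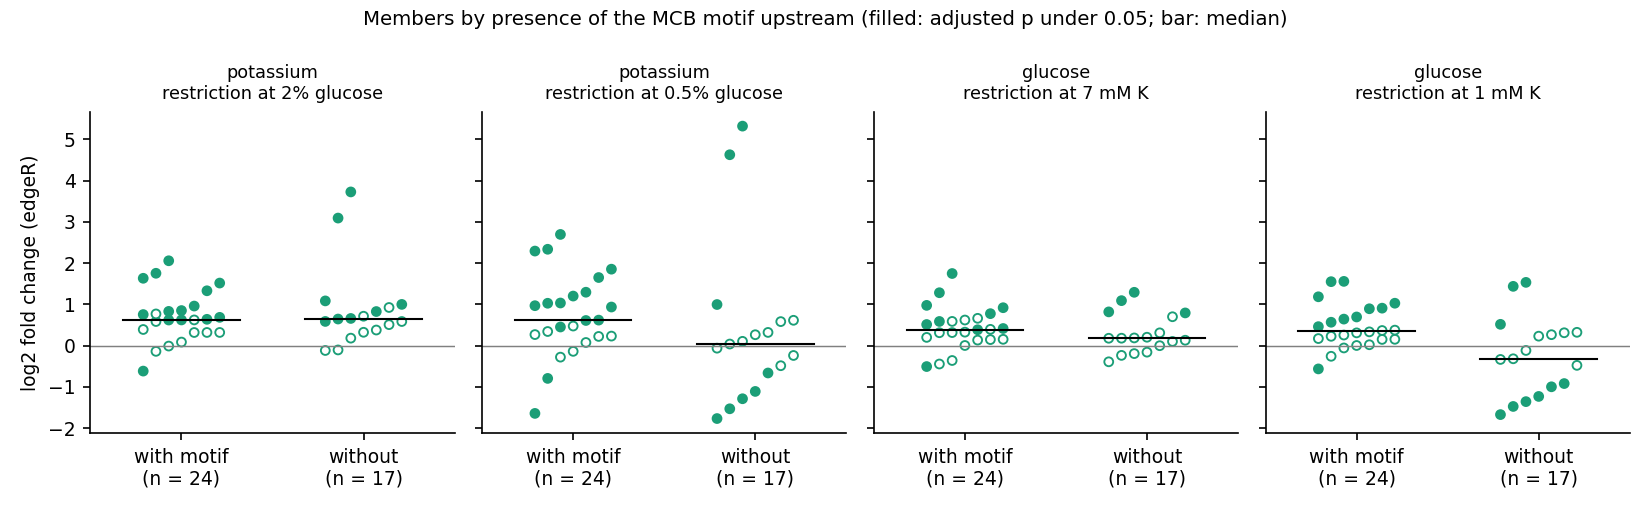
Log2 fold change of the 41 members in each pairwise comparison (y axis), split by whether ACGCGT lies from 250 bases before to 50 bases after the coding start; bars are medians and filled points had an adjusted p under 0.05. Medians differ most for potassium restriction at 0.5% glucose and for glucose restriction at 1 mM K. RNR1 and MCD1 are the highest points without the letters in that window in both potassium comparisons.

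Genes that supply nucleotides or control the reductase moved less evenly. Of 17 tested, 5 rose and 1 fell with potassium restriction at 2% glucose, and 8 rose and 2 fell at 0.5% glucose. Over all genes tested, 13.1% rose and 15.0% fell at 2% glucose, and 23.5% rose and 24.9% fell at 0.5% glucose. TRR1, the thioredoxin reductase that helps restore the reductase, rose by 1.24 ± 0.12 (adjusted p = 2.68e-05) and 2.68 ± 0.13 (adjusted p = 1.39e-07). DUN1, a checkpoint kinase that relieves inhibition of the reductase, rose by 1.24 ± 0.17 (adjusted p = 0.00025) and 0.80 ± 0.16 (adjusted p = 0.00213). CDC8, the thymidylate kinase, rose with glucose restriction by 1.26 ± 0.19 at 7 mM K (adjusted p = 0.000345) and 1.88 ± 0.19 at 1 mM K (adjusted p = 5.25e-05). HUG1, a reductase inhibitor made on DNA damage, held 0 to 4 counts in a library and did not pass the filter.

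Other genes of the replication fork and of its licensing were counted beside the members. Of 39, 4 rose and 2 fell with potassium restriction at 2% glucose, with a median of 0.14, and 11 rose and 3 fell without the library that stood apart. Of all genes, 13.1% rose and 15.0% fell there, and 26.6% rose and 23.9% fell without that library. In the same list 7 rose and 12 fell at 0.5% glucose, with a median of -0.08, beside 23.5% and 24.9% of all genes. ASF1, a histone chaperone, rose by 1.23 ± 0.23 at 2% glucose (adjusted p = 0.00229), while the nuclease DNA2 and the initiation factor MCM10 fell by 0.95 ± 0.16 (adjusted p = 0.00109) and 0.95 ± 0.19 (adjusted p = 0.00314). DPB11, a firing factor, rose with glucose restriction at 7 mM K by 1.05 ± 0.12 (adjusted p = 6.25e-05), where 12 of the 39 rose and 4 fell. Of all genes, 16.9% rose and 17.0% fell in that comparison.

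Of 19 genes for cohesin loading, cleavage and the related SMC complexes, 4 rose and 1 fell at 2% glucose and 1 rose and 9 fell at 0.5% glucose with potassium restriction. Over all genes tested, 13.1% rose and 15.0% fell at 2% glucose, and 23.5% rose and 24.9% fell at 0.5% glucose. SCC2, the loader, rose at 2% glucose by 0.72 ± 0.14 (adjusted p = 0.00325), PDS1, the securin, rose by 1.3 ± 0.20 (adjusted p = 0.000583), and SMC4, of condensin, fell by 0.96 ± 0.11 (adjusted p = 8.76e-05). Of 15 genes listed with the checkpoint, 3 rose and 1 fell at 2% glucose and 0 rose and 7 fell at 0.5% glucose. TOF2, placed in that list though not itself a checkpoint gene, rose by 0.88 ± 0.18 at 2% glucose (adjusted p = 0.00417). It fell by 0.70 ± 0.18 at 0.5% glucose (adjusted p = 0.00852). Of 34 mismatch and other repair genes, 3 rose and 6 fell at 2% glucose and 9 rose and 12 fell at 0.5% glucose. The counts at 2% glucose without the library that stood apart were 8 and 4 for the cohesin-related, 4 and 5 for the checkpoint and 6 and 11 for the repair genes. In that fit 50.5% of all genes were called, 26.6% that rose and 23.9% that fell. RAD54, a recombination motor, fell by 1.12 ± 0.14 at 2% glucose (adjusted p = 0.000194).

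Markers of cell cycle phases moved with the members, and their part in the members' changes was not tested. With potassium restriction 13.1% of all genes rose and 15.0% fell at 2% glucose, and 23.5% rose and 24.9% fell at 0.5% glucose. Of 20 regulators of the G1 to S transition, 8 rose and 1 fell with potassium restriction at 2% glucose and 7 rose and 2 fell at 0.5% glucose. Their summed level was 1055 to 1076 CPM in the control medium, 1207 to 1659 CPM in the low-potassium medium, 969.8 to 1214 CPM in the low-glucose medium and 1630 to 1739 CPM in the jointly restricted medium. The G1 cyclin CLN1 rose by 3.42 ± 0.21 (adjusted p = 1.19e-06) and 3.14 ± 0.21 (adjusted p = 1.22e-06), and PCL1, also a G1 cyclin, by 4.76 ± 0.30 (adjusted p = 1.56e-06) and 5.06 ± 0.30 (adjusted p = 6.44e-07). Of 8 core histone genes, made in S phase, 3 rose at 2% and 4 rose at 0.5% glucose and none fell. Without the library that stood apart 4 rose at 2% glucose, and 5 rose and 1 fell at 0.5% glucose. In that fit 50.5% and 57.8% of all genes were called at 2% and 0.5% glucose. The summed level of the histone genes was 1807 to 1908 CPM in the control medium, 2157 to 2626 CPM in the low-potassium medium, 1448 to 1837 CPM in the low-glucose medium and 2151 to 2270 CPM in the jointly restricted medium.

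Mitotic genes divided the media in another way. Of 16, 8 rose and 2 fell with potassium restriction at 2% glucose, 3 rose and 6 fell at 0.5% glucose, and 0 rose and 12 fell with glucose restriction at 1 mM K. Of all genes, 13.1%, 23.5% and 16.3% rose and 15.0%, 24.9% and 18.4% fell in these comparisons. Without the library that stood apart 10 mitotic genes rose and 3 fell, 6 and 7, and 1 and 12. In that fit 50.5%, 57.8% and 51.1% of all genes were called. The summed level of the mitotic genes was 881.4 to 968.5 CPM in the control medium, 951.6 to 1241 CPM in the low-potassium medium, 660.7 to 856 CPM in the low-glucose medium and 538.3 to 856.9 CPM in the jointly restricted medium. The mitotic cyclin CLB1 rose by 4.05 ± 0.26 with potassium restriction at 2% glucose (adjusted p = 1.56e-06) and fell by 3.41 ± 0.25 with glucose restriction at 1 mM K (adjusted p = 8.83e-06). Of 9 mating type and strain markers tested of 14 listed, 2 rose and 3 fell with potassium restriction at 2% glucose and 6 rose and 1 fell at 0.5% glucose. MF(ALPHA)1, the mating pheromone gene of MATalpha cells, rose by 2.78 ± 0.43 (adjusted p = 0.000726) and 4.03 ± 0.46 (adjusted p = 4.64e-05). Of 12 markers of meiosis and sporulation, 7 rose and 1 fell with glucose restriction at 7 mM K, beside 16.9% and 17.0% of all genes. Without the library that stood apart 6 rose and 3 fell, beside 22.0% and 21.8% of all genes. The highest value among these markers was 4.29 with that library and 1.69 without it. Their summed level was 394.2 to 1402 CPM in the low-glucose medium, against 263.9 to 437.5 CPM in the 9 libraries of the other media. The recombinase gene DMC1 reached 758.2 CPM in the library that stood apart, and REC8, the meiotic kleisin, fell with potassium restriction by 1.21 ± 0.17 at 2% glucose (adjusted p = 0.000277) and by 2.26 ± 0.17 at 0.5% glucose (adjusted p = 3e-06).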

How the data were processed

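RNA from 12 yeast cultures was sequenced as paired reads of 150 bases. Per the labels' protocols and the submitters' processing notes, the authors aligned reads with STAR 2.7.1a to build R64 and estimated counts per gene with RSEM 1.3.3. The deposited expected counts held 0 values that were not whole, so none needed rounding. Of 46904 rows, 7127 had SGD identifiers and 39777 had WBGene identifiers, which stayed out of library sizes and tests and served for an alternative scaling. Gene names, coordinates and coding starts came from an R64 annotation that matched 6444 SGD rows (90.4%). That annotation is a later release than the one in the labels, and coding starts are not transcript starts. CPM are over SGD rows after TMM scaling.

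Tests used edgeR 4.0.16 in R 4.3.3: quasi-likelihood, TMM, its default filter on low counts (6127 genes kept), 1 mean per medium over all 12 libraries (8 residual degrees of freedom), and Benjamini-Hochberg adjustment over all genes. The depth of 5634205 to 7036345 SGD counts per library limits the precision of the lowest members. Alternatives were DESeq2 1.42.0, limma 3.58.1 voom with and without quality weights, 3 other scalings and 2 other filters. Further fits took in just the media compared, added the replicate number as a block, or dropped 1 library at a time. Scripts were tested on simulated data. All libraries share 1 batch label.

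The members and gene lists were chosen with earlier results of these data known. Values in every library are given for the reductase genes and for the 2 members of each other role with the smallest p, and the member with the largest minimum p is named. In other lists the genes with the smallest p were named, 3 from potassium restriction at 2% glucose and 2 from glucose restriction at 7 mM K.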

Additional observations from a re-analysis of the deposited data

Results flagged for a closer look

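The effect of potassium restriction differed between 0.5% and 2% glucose for 15 members, by edgeR's test of the interaction on the log2 scale. It was higher at 0.5% glucose for RNR1 (1.60), MCD1 (1.53), CDC9 (1.07), POL12 (1.04) and CDC45 (1.00). It was lower for RNR2 (-2.77), RNR4 (-2.37), RFC1 (-1.71), MCM7 (-1.49), MCM5 (-1.41), MCM4 (-1.31), RNR3 (-1.03), IRR1 (-1.03), POL2 (-0.88) and RFA3 (-0.82). With WBGene scaling none of the 5 higher values was called. Rows with WBGene identifiers, which no comparison of levels used, took up to 41.6% of the counts of a library.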

How the results depend on the processing

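Of 95 calls of a member in a comparison, 55 were kept in every alternative and without every library, and no called value changed sign. Uncalled values were not followed. The share kept among the calls of all genes was not computed, so the 55 has no background beside it. Leaving out 1 library gave 12 to 32 members called for potassium restriction at 2% glucose, 19 to 26 at 0.5% glucose, 8 to 21 for glucose restriction at 7 mM K, 15 to 22 at 1 mM K, and 10 to 18 for the interaction. In the same order, the share of all genes called ran from 17.4% to 50.5%, 39.4% to 57.8%, 23.6% to 43.8%, 27.0% to 51.1% and 22.1% to 47.5%. Scaling by library totals gave 9 members for glucose restriction at 7 mM K and 13 at 1 mM K, and WBGene scaling gave 11 at 1 mM K. Of all genes, 29.6%, 34.7% and 36.1% were called there, in that order. Voom with quality weights gave 27, 31 and 23 for glucose restriction at 7 mM K, at 1 mM K and the interaction, with 60.2%, 61.8% and 61.1% of all genes called. Under WBGene scaling the median of all genes was 0.30 and -0.34 for potassium restriction at 2% and 0.5% glucose, against -0.0021 and -0.0232 under TMM. Beyond what each alternative's construction gives, the cause was not tested.

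Correlations of deviations from the group means ran from -0.37 to 0.33 for libraries with the same replicate number. For libraries with different numbers they ran from -0.40 to 0.43. Deviations in a group depend on each other through its mean, so these values cannot decide whether the replicate numbers pair the libraries. With the replicate number as a block, 18 and 23 members were called for potassium restriction at 2% and 0.5% glucose. For glucose restriction at 7 and 1 mM K 10 and 19 were called, and 13 for the interaction. Of all genes, 22.9%, 44.8%, 29.2% and 30.5% were called in the pairwise comparisons, in that order. For the interaction 1534 of 6127 genes were called. The members' share of calls was below that of all genes for glucose restriction at 7 mM K and above it in the others. The labels call the replicates biological, and p-values measure the spread between these libraries.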
